A study of Mus musculus with 4 samples.

Results

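The Cyp3a cytochromes are a family of membrane-bound P450 enzymes, here represented by Cyp3a11, Cyp3a13, Cyp3a16, Cyp3a25, Cyp3a44 and Cyp3a59. These 6 genes, of 22180 with a level, were selected by symbol: each has 1 probe set (the group of probes that reads a gene) that the array annotation gives to that symbol alone. Liver RNA of C57BL/6 mice that were older than 2 months when fructose feeding began was measured on 4 Affymetrix arrays, 1 per group. The groups were 6 Chrebp-null mice given a 70% fructose diet over 2 weeks, 7 wild-type (WT) mice given it over 3 weeks, 4 WT mice given it over 2 weeks, and 7 WT mice on regular chow. ChREBP, encoded by Mlxipl, is a sugar-responsive transcription factor. The RNA of all mice of a group was combined before labelling, so the spread between animals cannot be seen, no difference has a replicate check, and no test was possible. Every pool held males and females in proportions that the labels leave out. Nor do they say how the Chrebp allele was made.

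P450 enzymes of this family insert oxygen into steroids, bile acids and a wide range of drugs, using a heme group and electrons passed on from a reductase. In liver their transcription is switched on by ligands of the nuclear receptors PXR (Nr1i2) and CAR (Nr1i3). Some mouse members also differ by sex in the adult liver, where the time pattern of growth hormone secretion sets male and female programmes. Cyp3a11 is the main drug-inducible member in mouse liver, Cyp3a13 is expressed in intestine as well as liver, and Cyp3a16, Cyp3a41 and Cyp3a44 are known as female-predominant in adult mice.

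All values are log2 expression levels as deposited, and differences are those of 1 array minus another. A gene was assessed in a pair of arrays where the higher level was at least 3.52, the median of the gene means, called the floor. Array medians lay between 3.11 and 3.17, and Pearson's r between arrays over all probe sets was 0.974 to 0.982. With 1 array per group, precision is limited by how few arrays there are. Mlxipl read 8.09 in the Chrebp-null pool. It read 9.64 in WT on fructose for 3 weeks, 9.83 in WT on fructose for 2 weeks and 9.25 in WT on chow. The null pool was thus the lowest, at -1.16 over chow. Its level was still well above the floor, so a signal for the transcript remained there. The 7 hepatocyte markers were above the floor on every array. They lay between -0.27 and 0.16 in the 3-week WT over chow pair and between -0.23 and 0.14 in the Chrebp-null over 2-week WT pair. In pooled liver RNA, fewer cells of a type and less RNA per cell cannot be told apart.

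Cyp3a16 and Cyp3a44 had the widest ranges of the 6 genes. Cyp3a16 read 3.33 in the Chrebp-null pool, 9.63 in WT on fructose for 3 weeks, 2.28 in WT on fructose for 2 weeks and 7.64 in WT on chow. Cyp3a44 read 4.92 in the Chrebp-null pool, 9.71 in WT on fructose for 3 weeks, 4.23 in WT on fructose for 2 weeks and 7.24 in WT on chow. Both genes were highest in the 3-week WT pool, then on chow, and lowest in the 2-week pools of either genotype. Cyp3a16 was under the floor in both 2-week pools, so its levels there have no order.

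**Figure D1:**
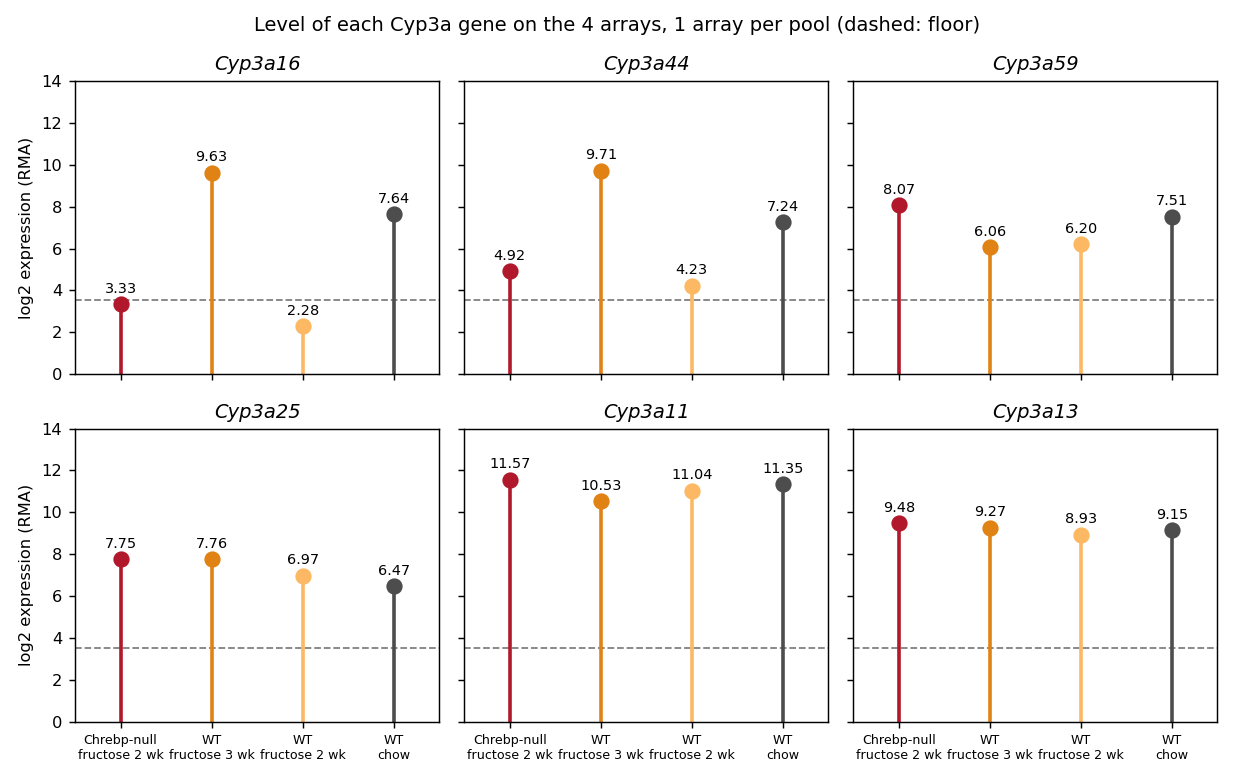
Log2 level (vertical axis, RMA units) of each Cyp3a gene on the 4 arrays (horizontal axis, 1 array of pooled liver RNA per group, so no error bars); the dashed line is the floor of 3.52. Cyp3a16 and Cyp3a44 span 7.34 and 5.47 between the WT pools fed fructose for 3 and 2 weeks, while Cyp3a13 stays between 8.93 and 9.48; heights are compared within a gene, not between genes.

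The 2 WT fructose pools share genotype and diet and differ in weeks of feeding and in the mice pooled. Between them, Cyp3a16 was higher at 3 weeks by a log2 difference of 7.34, or 6.11 from the floor, and Cyp3a44 by 5.47. By absolute difference they ranked 1 and 2 of the 11648 genes assessed in that pair. With the 2-week level of Cyp3a16 set at the floor, its 3-week level was at least 69.0-fold higher, and Cyp3a44 was 44.4-fold higher. None of the other 4 members differed by 2-fold between these pools: Cyp3a25 stood at 0.78, Cyp3a13 at 0.34, Cyp3a59 at -0.13 and Cyp3a11 at -0.51. So 2 of 6 members were at least 2-fold higher and none lower, where 1.27% of all genes assessed were higher and 1.1% lower, 2.37% in either direction.

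The direction of both genes relative to chow depended on which WT fructose pool was read. Over chow, Cyp3a16 stood at 1.99 in the 3-week pool and at -5.35 in the 2-week pool, or -4.12 with the 2-week level set at the floor. Cyp3a44 stood at 2.46 in the 3-week pool and at -3.01 in the 2-week pool. The chow array enters each of these differences. In the Chrebp-null pool over its 2-week WT counterpart Cyp3a44 stood at 0.68, under 2-fold, and Cyp3a16 was below the floor in both pools and was not assessed. Against the 3-week WT pool the null pool stood at -4.79 for Cyp3a44 and, with the null level set at the floor, at -6.11 for Cyp3a16.

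**Figure D2:**
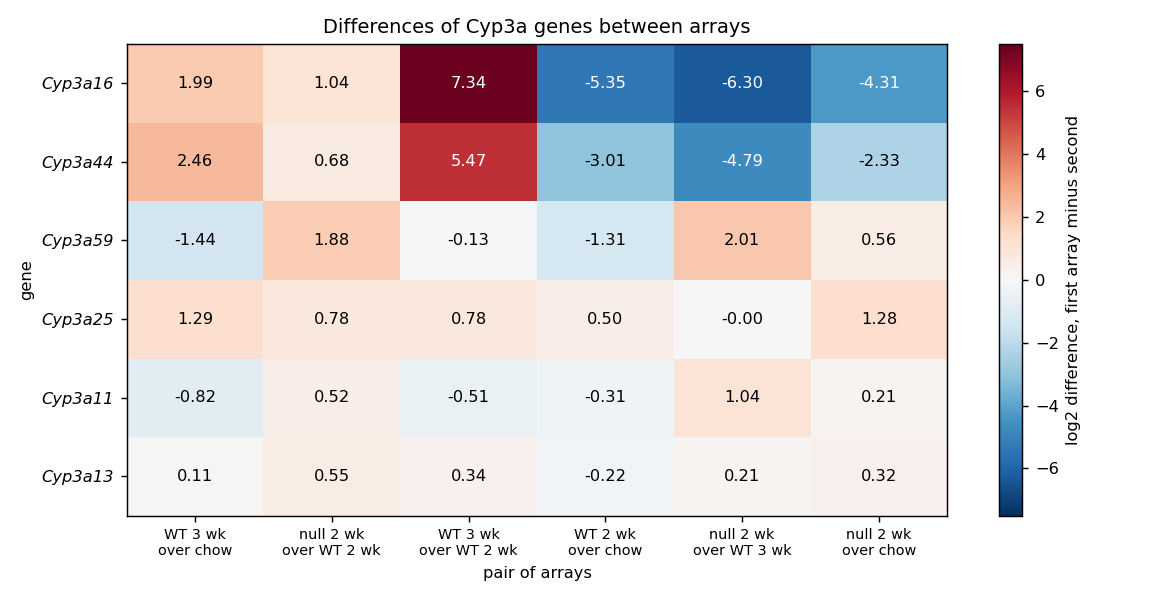
Log2 difference (colour and printed value) of each Cyp3a gene (rows) between 2 arrays (columns, first array minus second). The largest values are those of Cyp3a16 and Cyp3a44 in pairs of the 3-week WT pool with a 2-week pool. With them is Cyp3a16 at -5.35 in the 2-week WT pool over chow, its 2-week level being below the floor. Cyp3a59 is at 1.88 and 2.01 in the null pool over the WT fructose pools. Pairs that share an array are not independent.

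The annotation also lists 2 probe sets for Cyp3a41a, Cyp3a41b, Cyp3a11 and Cyp3a44 together, which no single gene can claim. Set 17455127 read 10.41 in the Chrebp-null pool, 11.41 in WT at 3 weeks, 9.98 in WT at 2 weeks and 10.87 on chow. Set 17455143 read 10.24 in the Chrebp-null pool, 11.47 in WT at 3 weeks, 9.80 in WT at 2 weeks and 10.74 on chow. Both put the pools in the order of Cyp3a44, with narrower gaps of 1.43 and 1.67 between the 3-week and 2-week WT pools. They are annotated to Cyp3a11 as well, whose own probe set gave -0.51 for that pair. With both sets averaged into Cyp3a44, its difference for that pair was 2.86 in place of 5.47, the 3-week WT pool stood at 1.24 over chow, the 2-week WT pool at -1.61 over chow and the null pool at -2.34 over the 3-week WT pool. How far such sharing also touches the single-symbol sets was not tested. Cyp3a57, a further family gene with its own probe set, was below the floor on all 4 arrays, with levels between 2.05 and 2.39.

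Cyp3a16 and Cyp3a44 lie near each other on chromosome 5. In the RefSeq annotation of GRCm38.p6 the protein-coding genes run Cyp3a57, Cyp3a16, Cyp3a41b, Cyp3a41a, Cyp3a44, Cyp3a11, Cyp3a25 and Cyp3a59 with no other protein-coding gene between them, and Cyp3a13 lies apart, with 121 protein-coding genes between it and Cyp3a57. Promoter sequences were found for all 6 members and for the other 3 of these genes. The 250 bases before the annotated start of Cyp3a16 and Cyp3a44 are printed because these genes had the widest ranges of levels and were both highest in the 3-week WT pool. Both are on the minus strand of GRCm38.p6, at chr5:145469724-145469973 for Cyp3a16 and chr5:145805875-145806124 for Cyp3a44, written 5′ to 3′ from RefSeq. Capitals mark the bases that differ from, or have no partner in, the other sequence when they are aligned.
Cyp3a16: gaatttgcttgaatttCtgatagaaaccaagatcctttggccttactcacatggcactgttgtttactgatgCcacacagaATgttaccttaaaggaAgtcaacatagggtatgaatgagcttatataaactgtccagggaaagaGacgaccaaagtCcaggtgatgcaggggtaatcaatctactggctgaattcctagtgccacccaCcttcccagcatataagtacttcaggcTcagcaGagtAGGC
Cyp3a44: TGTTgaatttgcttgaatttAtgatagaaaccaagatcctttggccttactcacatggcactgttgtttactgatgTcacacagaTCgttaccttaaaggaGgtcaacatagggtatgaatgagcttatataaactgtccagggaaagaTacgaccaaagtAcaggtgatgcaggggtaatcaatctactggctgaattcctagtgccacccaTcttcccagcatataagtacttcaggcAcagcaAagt
The 2 windows were identical at 92.9% of aligned positions, with 10 mismatches. The window of Cyp3a44 was identical with those of Cyp3a41a and Cyp3a41b, which have no probe set to themselves, at 94.4% and 94.8%. Cyp3a11, the next gene along, was identical with Cyp3a16 at 76.6% and with Cyp3a44 at 72.5%.

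**Figure D3:**
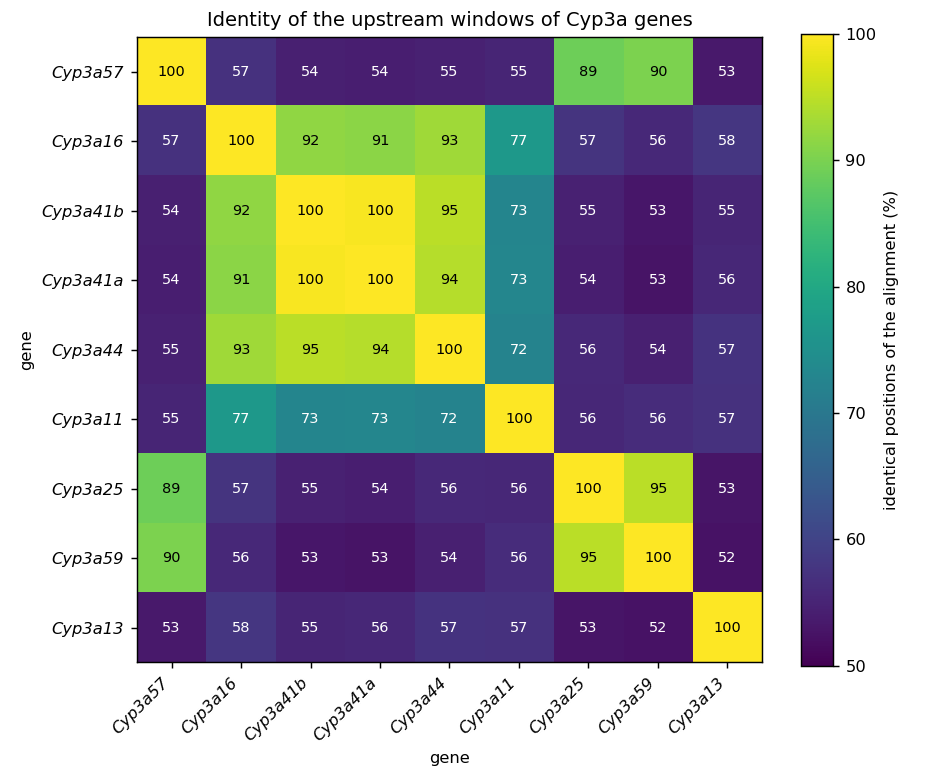
Share of identical positions (percent, colour and printed value) in global alignments of the 250 bases before the start of each pair of Cyp3a genes; genes are in chromosome order, with the distant Cyp3a13 last. Cyp3a16, both Cyp3a41 genes and Cyp3a44 form a block of 91.3% and more, and Cyp3a25, Cyp3a57 and Cyp3a59 another of 88.9% and more.

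Letters of known binding sequences were looked for on both strands of these windows. ATCAAT, the core of many sites of the liver factor HNF6 (Onecut1), was present once in each of 5 windows: 75 bases before the start in Cyp3a16, 71 in Cyp3a44, Cyp3a41a and Cyp3a41b, and 223 in Cyp3a57, which was below the floor on all arrays. Cyp3a11, Cyp3a13, Cyp3a25 and Cyp3a59 did not hold it. Of 27025 genes with such a window, 6.97% held it. TATAAA was found 126 bases before the start of Cyp3a16, 122 before that of Cyp3a44, Cyp3a41a and Cyp3a41b and 234 before that of Cyp3a11, against 12.97% of all windows. TTCNNNGAA, the sequence read by STAT5, was in none of the 9 windows and in 7.18% of all. No 2 of these matches overlapped, and a match is a description of letters, not a binding site.

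Onecut1 itself read 7.71 in the Chrebp-null pool, 10.05 in WT on fructose for 3 weeks, 8.12 in WT on fructose for 2 weeks and 8.77 on chow. Like Cyp3a16 and Cyp3a44 it was highest in the 3-week WT pool, by 1.28 over chow and 1.93 over the 2-week WT pool, and below chow in both 2-week pools. Bcl6, a repressor of female-biased genes in mouse liver, read 5.70 in the Chrebp-null pool, 5.45 in WT at 3 weeks, 7.28 in WT at 2 weeks and 7.11 on chow. It was lower at 3 weeks than at 2 weeks in WT, at -1.83, and low in the null pool too, where Cyp3a16 was also low. The other growth hormone genes measured, Ghr, Stat5a, Stat5b, Socs2, Cish, Igf1 and Igfals, were all under 2-fold between the WT fructose pools. Any part of these genes in the Cyp3a levels was not tested.

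Because Cyp3a16 and Cyp3a44 are female-predominant, sex-linked transcripts and other sex-biased liver genes are set beside them. Xist, made from the inactive X chromosome of females, read 7.04 in the Chrebp-null pool, 8.77 in WT at 3 weeks, 8.56 in WT at 2 weeks and 8.84 on chow. The Y-linked Eif2s3y read 7.34 in the Chrebp-null pool, 6.00 in WT at 3 weeks, 6.51 in WT at 2 weeks and 6.12 on chow. Xist was thus lowest and Eif2s3y highest in the null pool. Between the WT fructose pools, 3 weeks over 2 weeks, Xist stood at 0.21, Uty at -0.20, Kdm5d at -0.35 and Eif2s3y at -0.51, the last 3 being Y-linked, against 7.34 and 5.47 for the Cyp3a genes. In the null over the 2-week WT pool Xist stood at -1.53, and Uty, Kdm5d and Eif2s3y at 0.53, 0.76 and 0.84.

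Of female-biased liver genes, 17 had a probe set, and all of these were assessed between the WT fructose pools. At 3 weeks over 2 weeks 6 were at least 2-fold higher and none lower, with a median of 0.49. Among all genes assessed in that pair 1.27% were higher and 1.1% lower, with a median of -0.02. Sult3a1, a sulfotransferase gene, stood at 4.53 with its 2-week level just under the floor. A1bg, encoding a plasma glycoprotein, stood at 3.12 and the sulfotransferase gene Sult2a1 at 2.90. Among female-biased cytochromes, Cyp2c69 stood at 1.48 and Cyp17a1 at 1.38, while Cyp2a4, Cyp2b9 and Cyp2b13 were under 2-fold at 0.46, 0.39 and 0.11. The summed linear level of the female-biased list was 4830 in the Chrebp-null pool, 12115 in WT at 3 weeks, 7584 in WT at 2 weeks and 10612 on chow, with 14, 17, 15 and 16 genes at or above the floor in that order of pools. Of 13 male-biased genes assessed, 2 were at least 2-fold higher and none lower at 3 weeks than at 2 weeks, with a median of 0.65. In that pair 12 of the 13 male-biased genes were above 0, and 13 of the 17 female-biased genes were. A level above that at 2 weeks was thus not particular to the female-biased list. The sizes differed, with a largest difference of 1.44 in the male-biased and 4.53 in the female-biased list. In the null over the 2-week WT pool 8 of the 13 male-biased genes were at least 2-fold lower and none higher, with a median of -1.10. Of 15 female-biased genes assessed in that pair, 4 were lower and 2 higher, with a median of -0.11. Among all genes assessed there 1.43% were lower and 2.03% higher. The share of each sex in the pools cannot be told apart from diet, time or genotype here.

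**Figure D4:**
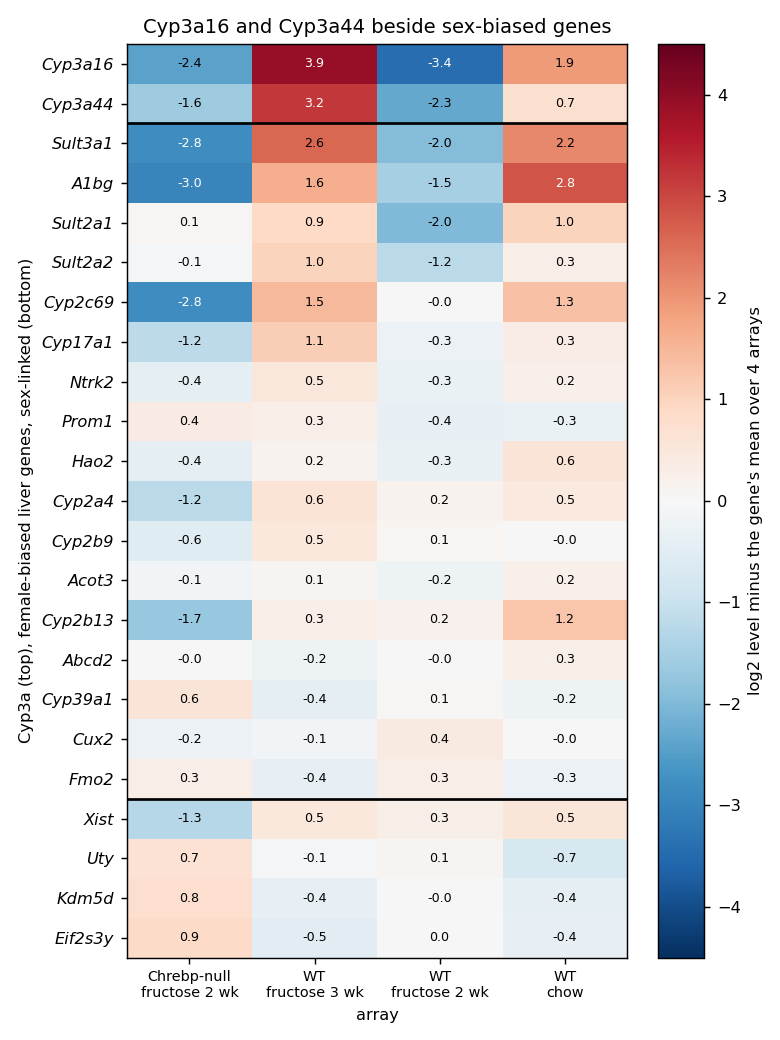
Log2 level minus the gene's own mean over the 4 arrays (colour and printed value) for Cyp3a16 and Cyp3a44 (top), 17 female-biased liver genes ordered by the difference between the 3-week and 2-week WT pools (middle), and Xist with 3 Y-linked genes (bottom); columns are arrays. Sult3a1 and A1bg are low on both 2-week arrays as the Cyp3a genes are, while Cyp2b9 and Xist differ by less than 2-fold between the WT fructose pools.

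Over the 4 arrays, the profiles nearest to Cyp3a16 among 12188 other genes, by Euclidean distance between mean-centred levels, were those of Sult3a2 at 1.94, Sult3a1 at 2.05 and Gbp11, a guanylate-binding protein gene, at 2.35. The distance between Cyp3a16 and Cyp3a44 was 1.97. For Cyp3a44 the nearest were Sult3a2 at 1.35, Sult3a1 at 1.99 and Ctse, which encodes the protease cathepsin E, at 2.19. Sult3a2 read 1.61 in the Chrebp-null pool and 2.59 in WT at 2 weeks, both below the floor as Cyp3a16 was, 7.71 in WT at 3 weeks and 5.55 on chow. The sulfotransferase copies are similar in sequence and may share probes. These distances take in levels below the floor as deposited and were not recomputed with such levels set at the floor. The order of close distances is therefore uncertain.

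Cyp3a59 showed another order of pools. It read 8.07 in the Chrebp-null pool, 6.06 in WT on fructose for 3 weeks, 6.20 in WT on fructose for 2 weeks and 7.51 in WT on chow. The WT fructose pools were both low and close to each other, at -0.13, and the null pool was the highest. Cyp3a59 stood at -1.44 over chow at 3 weeks and at -1.31 at 2 weeks with the same chow array, and at 1.88 in the null over the 2-week WT pool, a ratio of 3.67. Against the 3-week WT pool the null pool stood at 2.01. The nearest profiles were those of 3 cholesterol synthesis genes, the sterol oxidase gene Msmo1 at a distance of 0.11, the demethylase gene Cyp51 at 0.15 and the squalene epoxidase gene Sqle at 0.20.

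Cyp3a25, which encodes a steroid-hydroxylating member, read 7.75 in the Chrebp-null pool, 7.76 in WT on fructose for 3 weeks, 6.97 in WT on fructose for 2 weeks and 6.47 in WT on chow. Chow was the lowest pool, and the null and 3-week WT pools were level. Over chow it stood at 1.29 at 3 weeks and 0.50 at 2 weeks, and in the null over the 2-week WT pool at 0.78. Cyp4a31, another cytochrome gene, had the nearest profile, at a distance of 0.20, followed by Ect2, a regulator of cell division, at 0.23.

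Cyp3a25 and Cyp3a59 follow each other in the family cluster and are printed because their levels parted while their upstream windows are nearly the same. They are on opposite strands of GRCm38.p6, Cyp3a25 on the minus strand at chr5:146009619-146009868 and Cyp3a59 on the plus strand at chr5:146079008-146079257. The RefSeq bases run 5′ to 3′ and capitals again mark what differs between the aligned pair.
Cyp3a25: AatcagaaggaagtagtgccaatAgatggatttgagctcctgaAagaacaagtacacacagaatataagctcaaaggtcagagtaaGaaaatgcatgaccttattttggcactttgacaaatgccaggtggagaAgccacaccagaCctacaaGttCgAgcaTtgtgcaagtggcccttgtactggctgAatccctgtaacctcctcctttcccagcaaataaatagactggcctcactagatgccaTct
Cyp3a59: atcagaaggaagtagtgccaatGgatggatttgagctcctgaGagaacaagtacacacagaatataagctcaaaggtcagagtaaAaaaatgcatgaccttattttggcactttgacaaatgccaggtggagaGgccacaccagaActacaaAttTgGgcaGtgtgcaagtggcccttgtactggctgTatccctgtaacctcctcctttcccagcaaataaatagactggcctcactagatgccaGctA
These windows were identical at 94.8% of aligned positions, with 11 mismatches. Each held AGGTCA, the half-site read by nuclear receptors, in 2 places, at 176 and 155 bases before the start in Cyp3a25 and at 177 and 156 in Cyp3a59. Cyp3a57, which was below the floor on all arrays, also held it in 2 places, at 174 and 153 bases. Cyp3a11 and Cyp3a44 held it once, Cyp3a13, Cyp3a16 and both Cyp3a41 genes did not, and 13.8% of all windows did. The related half-site AGTTCA was in Cyp3a11 alone among the members, and in 11.9% of all windows. The null over the 3-week WT pool stood at 2.01 for Cyp3a59 and at -0.0041 for Cyp3a25.

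Cyp3a11 read 11.57 in the Chrebp-null pool, 10.53 in WT on fructose for 3 weeks, 11.04 in WT on fructose for 2 weeks and 11.35 in WT on chow. The WT fructose pools were below chow by less than 2-fold, at -0.82 and -0.31, and the null pool was highest, at 0.52 over the 2-week and 1.04 over the 3-week WT pool. With the shared probe sets averaged in, that last difference turned to -0.40, the 3-week WT pool stood at 0.15 over chow and at 0.86 over the 2-week WT pool, and the null pool at -0.25 over chow, where the gene's own set gave 0.21. The other 2 pairs kept their side, with the null at 0.46 over the 2-week WT pool and the 2-week WT pool at -0.71 over chow. In 4 of 6 pairs the direction of Cyp3a11 thus depended on which probe sets were read. The nearest profiles to Cyp3a11 were those of Supt5 at a distance of 0.054, Ehd2 at 0.058 and the metallothionein gene Mt1 at 0.063. Cyp3a13 varied least, with 9.48 in the Chrebp-null pool, 9.27 in WT at 3 weeks, 8.93 in WT at 2 weeks and 9.15 on chow. No pair of arrays differed by 2-fold for Cyp3a13, and its largest difference was 0.55, in the null over the 2-week WT pool. Of 5 enterocyte markers, Fabp2 was above the floor and Vil1, Lct, Alpi and Sis were below it on all arrays.

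Across the family, 3 members were at least 2-fold higher (Cyp3a16, Cyp3a44 and Cyp3a25) and 1 lower (Cyp3a59) in WT on 3 weeks of fructose over chow, all 6 being assessed. Among all genes assessed in that pair 0.64% were higher and 1.16% lower, 1.8% in all. In WT on 2 weeks of fructose over the same chow array none was higher and 3 were lower (Cyp3a16, Cyp3a44 and Cyp3a59), against 0.783% and 1.41% of all genes, or 2.19% in all. Cyp3a59 was the 1 member at least 2-fold from chow on the same side in both. In the Chrebp-null over the 2-week WT pool, 1 of 5 members assessed was higher and none lower, against 2.03% and 1.43% of all genes, or 3.46% in all. Those 5 differences lay between 0.52 and 1.88 with a median of 0.68, against 0.099 for all genes assessed. Against the 3-week WT pool 2 members were higher (Cyp3a59 and Cyp3a11) and 2 lower (Cyp3a16 and Cyp3a44) in the null pool, against 3.38% and 1.95% of all genes, or 5.33% in all. Over chow, the null pool had 1 member higher (Cyp3a25) and 2 lower (Cyp3a16 and Cyp3a44), against 1.66% and 1.43%, or 3.09% in all.

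The receptors that switch on Cyp3a genes differed by less than 2-fold in every pair of arrays. Nr1i2, encoding PXR, read 8.60 in the Chrebp-null pool, 8.23 in WT at 3 weeks, 8.62 in WT at 2 weeks and 8.46 on chow. Nr1i3, encoding CAR, read 9.30 in the Chrebp-null pool, 8.63 in WT at 3 weeks, 8.99 in WT at 2 weeks and 8.83 on chow. Both were lowest in the 3-week WT pool. Of 12 regulators assessed, Onecut1 alone passed 2-fold in the 3-week WT over chow pair and none did in the null over the 2-week WT pair, with medians of -0.22 and -0.23. Between the WT fructose pools, 3 weeks over 2 weeks, Onecut1 and Nr0b2, encoding the corepressor SHP, were at least 2-fold higher, Nr0b2 at 1.23. In WT at 2 weeks over chow Nr0b2 stood at -1.16 and Foxa2, a liver transcription factor gene, at -1.25. In the null pool Nr0b2 and Onecut1 were at least 2-fold lower than in the 3-week WT pool and than on chow, and Foxa2 was at least 2-fold lower than on chow alone.

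Other known targets of PXR and CAR were set beside the family, most of their differences being under 2-fold between single arrays. Of 14 with a probe set, 5 were at least 2-fold lower and none higher in WT on 3 weeks of fructose over chow, and 13 were below 0, with a median of -0.85 against -0.05 for all genes. The transporter gene Abcc3 stood at -1.82, the transporter gene Slco1a4 at -1.36, the carboxylesterase gene Ces2a at -1.30, and the cytochrome genes Cyp2b10 and Cyp2c55 at -1.17 and -1.15. In the null over the 2-week WT pool, a pair that shares no array with the first, 2 were at least 2-fold higher and none lower, and 13 were above 0, with a median of 0.64 against 0.099. Cyp2c55 stood there at 2.93 and Slco1a4 at 1.09. For WT at 2 weeks over chow, 2 were lower (Cyp2c55 at -1.52 and Cyp2b10 at -1.40) and the median was -0.34. Cyp3a11 stood on the same sides as this list's medians in both pairs, at -0.82 and 0.52, but at 0.15 and 0.46 with the shared probe sets averaged in. Cyp3a59 stood on those sides, at -1.44 and 1.88, while Cyp3a25 was above 0 in both. The 6 pericentral hepatocyte markers, genes of the liver zone around the central vein, were all below 0 in the 3-week WT over chow pair, with a median of -0.38, and 5 of them were above 0 in the null over the 2-week WT pair, with a median of 0.23. None of the 6 passed 2-fold in these pairs, and their part in the values above was not tested. Summed linear levels were 8498 in the Chrebp-null pool, 8575 in WT at 3 weeks, 7816 in WT at 2 weeks and 9624 on chow. Of 4 periportal markers, genes of the zone around the portal vein, 3 were below 0 in the first pair, with a median of -0.22. In the second pair all 4 were below 0, with a median of -0.16.

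**Figure D5:**
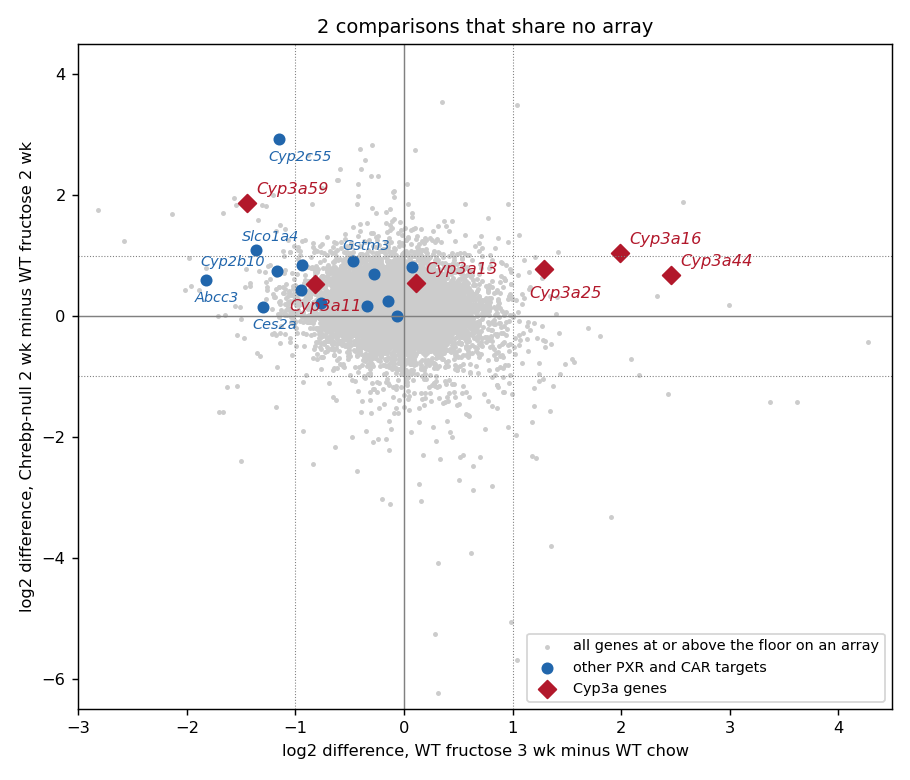
Log2 difference of WT on 3 weeks of fructose minus WT on chow (horizontal axis) against that of Chrebp-null minus WT on 2 weeks of fructose (vertical axis); grey points are all genes at or above the floor on at least 1 array, blue points other PXR and CAR targets, red diamonds Cyp3a genes, and dotted lines mark 2-fold. Cyp3a59, at -1.44 and 1.88, lies upper left, as does Cyp2c55 at -1.15 and 2.93, whereas Cyp3a16, Cyp3a44 and Cyp3a25 lie to the right; Cyp3a16 was below the floor on both arrays of the vertical axis.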

How the data were processed

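Per the labels' protocols, liver RNA of each group was combined, labelled (WT Plus kit) and put on 1 array. The authors deposited log2 values for 41345 probe sets, made with affy and RMA per the submitters' processing notes. Its version, its settings and the set of arrays normalized at once are not stated in any label used here.

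The platform annotation gives 23521 probe sets 1 symbol, 1814 several and 16010 none. For each single symbol the probe set with the highest mean was kept, leaving 22180 genes. Each member had 1 such set. Differences are between single arrays, with no SD and no p. A gene was counted where its higher level was at or above 3.52 and the difference was at least 2-fold. Genes are named by a rule: the members, other Cyp3a probe sets, the 3 nearest profiles per member, the largest differences of each gene list, the receptors, sex-linked transcripts and Mlxipl. Further list genes with small differences are named beside them, chosen after their values were seen. Members and lists were chosen with earlier results of these data known. Promoter windows are RefSeq's (GRCm38.p6), aligned globally with Biopython 1.88. The counting code was checked on simulated data, with shifts well above the threshold in genes above the floor. That check does not cover differences near 2-fold or levels near the floor. Alternatives were other scalings, floors, thresholds, probe set rules and WT arrays. Python 3.11.15, numpy 2.4.6, pandas 2.3.3, statsmodels 0.14.6 and matplotlib 3.10.9 were used.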

Additional observations from a re-analysis of the deposited data

Results flagged for a closer look

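Cyp3a16, Cyp3a44 and Cyp3a13 stood on opposite sides of chow in the WT pools fed fructose for 3 and for 2 weeks, with 1 array each and a shared chow array, and the difference was not tested. The 3-week value minus the 2-week value was 7.34 for Cyp3a16 (1.99 and -5.35 over chow), or 6.11 (1.99 and -4.12) with its 2-week level, which was below the floor, set at the floor, 5.47 for Cyp3a44 (2.46 and -3.01) and 0.34 for Cyp3a13 (0.11 and -0.22). Both values of Cyp3a13 were under 2-fold.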

How the results depend on the processing

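Which WT fructose array is read decided the direction of Cyp3a16 and Cyp3a44 over chow. With the 2-week array in place of the 3-week one they stood at -5.35 (-4.12 from the floor) and -3.01, and 0 members were at least 2-fold higher and 3 lower. With the mean of both arrays they stood at -1.68 (-1.06 with the 2-week level of Cyp3a16 set at the floor, added after seeing the data) and -0.28, with 0 members higher and 2 lower, so 2 in either direction. For the Chrebp-null pool, the 3-week in place of the 2-week WT array gave 2 higher and 2 lower, 4 in all, and the mean of both gave 2 lower and 3 in all. The share of all genes that passed was worked out only at 2-fold, with the main floor and probe sets and between single arrays. Counts at other settings have no such share beside them and are not read as a result. Other thresholds moved counts by construction. At 1.5-fold 2 members were lower on 3 weeks of fructose, and 3 were higher in the null over the 2-week WT pool, 3 in all. At 3-fold 2 members passed on 3 weeks of fructose, 0 of them lower, and the null pool had 1 higher over the 3-week WT pool and 0 over chow. Without a floor 2 members were higher in the null over the 2-week WT pool, 2 in all, because Cyp3a16 entered. Averaging in the shared probe sets, an alternative chosen after seeing the data, left 1 member higher in the null over the 3-week WT pool and turned Cyp3a11 there to -0.40. It also put Cyp3a11 at 0.15 on 3 weeks of fructose over chow, 0.86 at 3 over 2 weeks and -0.25 in the null over chow, and brought Cyp3a44 to 1.24, 2.86 and -1.10 in those pairs and to -2.34 in the null over the 3-week WT pool. Centred arrays, quantile normalization and removal of the trend with level moved none of the 36 member differences across 2-fold. The largest move was 0.151. The mean of all probe sets changed none of them, since each member has 1. No paired analysis was possible because each group has 1 array.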

Other observations

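Genes that serve P450 enzymes in general were under 2-fold in every pair of arrays. The 7 heme synthesis genes with a probe set had a median of -0.06 in WT on 3 weeks of fructose over chow, between -0.81 for Cpox and 0.62 for Urod, and of 0.15 in the Chrebp-null over the 2-week WT pool. Alas1, the rate-limiting enzyme of heme synthesis, stood at 0.06 and 0.20. The electron transfer genes Cyb5a, Cyb5b, Cyb5r3 and Pgrmc1 lay between -0.44 and -0.04 in WT on 3 weeks of fructose over chow, and between -0.06 and 0.14 in the null over the 2-week WT pool. Por was not analysed here.

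Cyp3a16 is also known from fetal mouse liver. Of 4 fetal liver genes with a probe set, Afp and Igf2 were at or above the floor and Dlk1 and Gpc3 below it on every array. Afp stood at -0.01 and Igf2 at 0.31 in the 3-week over the 2-week WT pool. Cyp3a16 stood there at 7.34, or 6.11 from the floor. Afp, between 3.69 and 4.00, and Igf2, between 3.84 and 4.15, lay close to the floor, where small differences say little. A tie of Cyp3a16 to fetal genes was not tested.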
